A study of Mus musculus with 14 samples.

Results

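Nodal, Lefty, BMP and TGF-beta signalling genes were described in mouse embryonic stem cells (ESCs) as a set of 10: the ligands Nodal, Inhba and Bmp4, the receptors and co-receptor Tgfbr2, Acvr2a and Tdgf1, the inhibitors Lefty1, Lefty2 and Smad7, and the target Id1. The members were taken by gene name, and all 10 were found among the 22376 genes of the RNA-seq table. The study sequenced 14 libraries. Degradome-seq, which reads the first base of polyA-tailed RNAs that carry a 5′ monophosphate, covered 2 control and 2 Drosha-deficient libraries of 1 line and 2 control and 2 Dicer-deficient libraries of another, and RNA-seq covered 3 control and 3 Drosha-deficient libraries. The Drosha line carried the Drosha fl/fl allele and CreERT2 in the Rosa26 locus in all of its libraries. Its deficient libraries came from cells given 100 nM 4-hydroxytamoxifen for 72 h and then kept for 48 h without it, and its controls were not treated. The Dicer line carried the Dicer fl/fl allele. Its deficient libraries came from cells transduced with GFP-Cre retrovirus and its controls from cells transduced with GFP, sorted for GFP at day 3 and cultured for 2 days more. All ESCs grew with serum, serum replacement and LIF on mouse embryonic fibroblasts inactivated with mitomycin C. Tamoxifen was given only to the deficient cells of the Drosha line, so its effect and that of the deletion cannot be told apart.

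The RNA-seq table gives 1 mean level per gene over its 6 libraries and no value per library. How far the RNA of each member changed without Drosha is not analysed here, and the loss of Drosha could not be checked in single RNA-seq libraries. The paper reports checks of both deletions by qRT-PCR, which were not examined here. What follows is the level of each member, the matches in its 3′ untranslated region (3′UTR) to the seed of the miR-290 and miR-302 clusters, the Degradome-seq sites in its gene, and the Degradome-seq sites at the miRNA loci that carry the seed.

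As background, Nodal and activin (whose subunit is the product of Inhba) signal through type I and type II receptors to the transducers Smad2 and Smad3. Nodal also needs the co-receptor Tdgf1 (Cripto). The Lefty proteins block Nodal signalling and are themselves induced by it, Smad7 is an inhibitory Smad, and BMP ligands act through Smad1 and Smad5 to induce Id genes. In ESCs, many miRNAs of the miR-290 and miR-302 clusters share a seed, the bases by which a miRNA pairs with its targets, and Lefty1, Lefty2 and Tgfbr2 are known targets of that seed. Most miRNAs need Drosha to cut the hairpin out of the primary transcript and Dicer to cut the hairpin into the mature form.

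The mature miRNAs are shown because their seed sets which 3′UTR bases were searched. The sequences are from RefSeq (GRCm38.p6), 5′ to 3′, with bases 2 to 8 in capitals. The first 5 share all 7 seed bases, and the last 2 share bases 2 to 7 with them and differ at base 8. Of the 10 mature 3p sequences found for both clusters, the other 3 (miR-293-3p, miR-302c-3p as listed and miR-367-3p) do not have this seed and are not shown.
mmu-miR-291a-3p: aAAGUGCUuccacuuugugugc
mmu-miR-294-3p: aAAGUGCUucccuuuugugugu
mmu-miR-295-3p: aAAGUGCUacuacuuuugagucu
mmu-miR-302b-3p: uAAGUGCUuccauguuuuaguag
mmu-miR-302d-3p: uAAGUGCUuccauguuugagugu
mmu-miR-290a-3p: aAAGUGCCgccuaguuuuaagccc
mmu-miR-291b-3p: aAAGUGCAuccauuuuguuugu

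Matches to this seed were found in the 3′UTRs of 7 of the 10 members. The 3′UTR of 1 protein-coding transcript per gene (GENCODE vM21) was searched on the sense strand for GCACTT, which pairs with bases 2 to 7, for AGCACTT, which contains it and pairs with bases 2 to 8, and for AGCACTTA, which adds the A that stands opposite base 1. GCACTT was present in 30.8% of the 15318 3′UTRs searched, AGCACTT in 15.9% and AGCACTTA in 3.23%. Among the 10 members, AGCACTT was present in 4, and AGCACTTA was present in 2, Lefty1 and Lefty2. The members held 0.584 GCACTT matches per kb of 3′UTR beside 0.305 per kb over all 3′UTRs. The 3 known targets were chosen for this seed, so their matches are a description. Of the other 7 members, 4 held GCACTT and 1 held AGCACTT, and their density was 0.408 per kb. Of 39 other pathway genes, 15 held GCACTT (38.5%), 8 held AGCACTT (20.5%) and 1, Smad5, held AGCACTTA, with 0.267 matches per kb.

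The matches are shown because the members differ in their number and length. The match in Smad7 is described without its sequence. Each is printed on the strand of the gene (GRCm38), with the match in capitals.
Lefty1 (chr1:180938202-180938230, plus strand): actgtatgcgaAGCACTTAcatgtataga
Lefty2 (chr1:180897906-180897934, plus strand): cacccagtttaAGCACTTAcatgggtaaa
Tgfbr2, upstream match (chr9:116090064-116090092, minus strand): ccaataacgtttGCACTTtattaatgcct
Tgfbr2, downstream match (chr9:116089870-116089898, minus strand): gggatagcgttAGCACTTgacaatcagtc
Inhba, upstream match (chr13:16028301-16028329, plus strand): ggtttaagagctGCACTTcatgtgagcta
Inhba, downstream match (chr13:16028730-16028758, plus strand): tacacattttaAGCACTTcaggctgtcat
Nodal (chr10:61425220-61425248, plus strand): ccagagaggtggGCACTTgtccaagaggg
Acvr2a (chr2:48901696-48901724, plus strand): ataggtttgcttGCACTTgtaagctaatc

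The Lefty genes held the longest match, in 3′UTRs that differ in length. In Lefty1 the match began at base 239 of a 3′UTR of 425 nt, and in Lefty2 at base 105 of 1290 nt. For scale, 3′UTRs of like length were taken as those from 0.8 times the length up to the length divided by 0.8. AGCACTT was present in 4.74% of 1520 3′UTRs of like length to that of Lefty1, and in 14.9% of 2380 of like length to that of Lefty2. In Tgfbr2, the type II TGF-beta receptor, the matches began at bases 298 and 492 of 1449 nt, and 16.9% of 2417 3′UTRs of like length held AGCACTT.

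Inhba, which encodes the subunit of activin A, held its matches at bases 1184 and 1613 of 4492 nt. A match there is common for the length, since 44.1% of 1029 3′UTRs of like length held AGCACTT and 73.9% held GCACTT. Acvr2a, a type II activin receptor, held GCACTT at base 1920 of 3481 nt, where 65.0% of 1585 like 3′UTRs held it. Nodal held it at base 596 of 702 nt, with 18.4% of 1908 like 3′UTRs. Smad7 held it at base 1414 of 1570 nt, with 36.9% of 2444 like 3′UTRs. The 3′UTRs of Bmp4 (339 nt), Tdgf1 (1101 nt) and Id1 (563 nt) held no GCACTT. A match is a description of the letters, and binding was not measured.

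**Figure D1:**
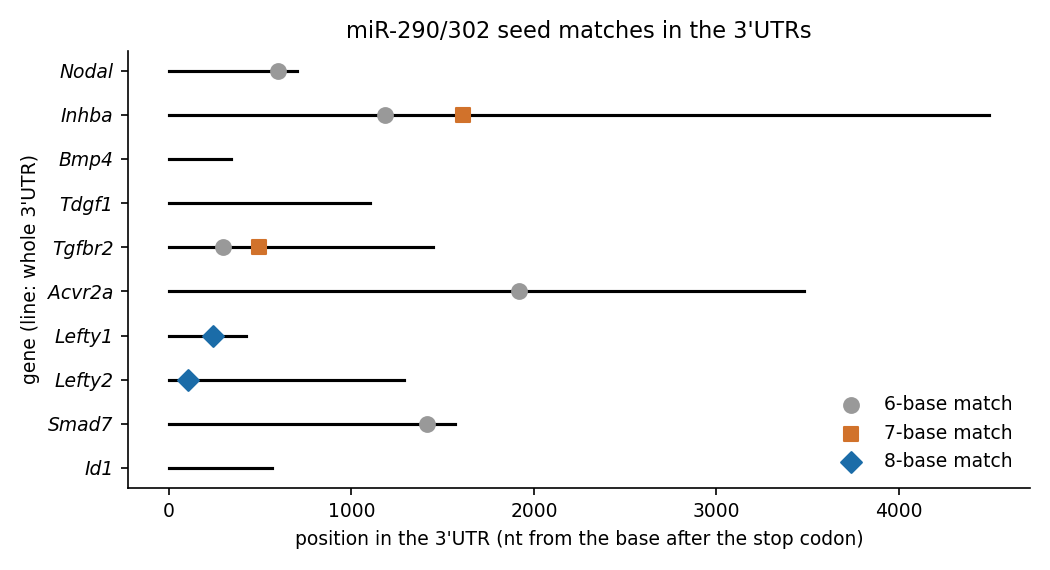
Positions of seed matches (symbols, by length of the match in bases) along the 3′UTR of each of the 10 genes (black line, x axis in nt from the base after the stop codon). The 8-base matches stand in Lefty1 and Lefty2, Inhba and Tgfbr2 each hold a 7-base and a 6-base match, and Bmp4, Tdgf1 and Id1 hold none.

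The RNA of the members ranged from −2.15 log2 CPM (Bmp4) to 9.69 log2 CPM (Tdgf1), in a table that ran from −3.25 to 13.05. Levels are the authors' mean log2 values of counts per 1000000 reads (CPM) over control and Drosha-deficient libraries together, so no value has an SD, and no test between genes or conditions was run. Of the 10 members, 9 were at or above 0 log2 CPM, as were 65% of all genes, and 6 were above the median gene (2.34). The median member stood at 4.54 log2 CPM, above 66.3% of all genes. To compare genes, levels were divided by the exon length and are given as log2 CPM per kb, for which the median gene was at 1.05 and the median member at 2.37.

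Among the 3 member ligands, Nodal was the most abundant and Bmp4 was near the bottom of the table. Nodal (chr10:61417972-61425338) had a mean of 5.04 log2 CPM, which is 32.8 CPM and 3.97 log2 CPM per kb. Inhba (chr13:16011851-16031621) had 1.82 log2 CPM and −0.86 log2 CPM per kb. Bmp4 (chr14:46383520-46390669), a ligand of the BMP branch, had −2.15 log2 CPM, or 0.225 CPM, where the lowest gene of the table had −3.25. Nodal thus stood above 82.4% of genes per kb, Inhba above 32.9% and Bmp4 above 10.5%. Of 12 other ligands, 9 were listed, and Gdf3, a TGF-beta family ligand of pluripotent cells, was the highest of them at 4.45 log2 CPM per kb, above Nodal. Gdf1, Bmp2 and Bmp5 were not among the rows analysed here.

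Among the receptors, the co-receptor stood far above the kinases. Tdgf1 (chr9:110939603-110946158) had 9.69 log2 CPM, or 823 CPM, and at 8.29 log2 CPM per kb lay above 99.4% of genes. This level was beside that of Pou5f1 (8.61 log2 CPM per kb) and Nanog (7.97), transcription factors of pluripotency. Acvr2a (chr2:48814109-48903269) had 4.23 log2 CPM and 1.72 log2 CPM per kb. Tgfbr2 (chr9:116084293-116175360) had 1.43 log2 CPM and −1.60 log2 CPM per kb, below the median gene on both scales. Its partner, the type I receptor Tgfbr1, had 2.97 log2 CPM per kb, and Bmpr1a, a type I BMP receptor, had 4.47.

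The 3 inhibitors lay close together and all were above the median gene. Lefty2 (chr1:180893108-180899103) had 5.62 log2 CPM and 4.23 log2 CPM per kb. Lefty1 (chr1:180935022-180938400), its neighbour 35918 bases away on the same strand, had 4.85 log2 CPM and 4.03 log2 CPM per kb. Smad7, on chromosome 18, had 5.20 log2 CPM and 3.02 log2 CPM per kb. Per kb, the order of the 4 most abundant members was thus Tdgf1, Lefty2, Lefty1 and Nodal. With 1 mean per gene, whether neighbours in this order differ beyond their spread is not known. Of 9 other inhibitors, 8 were listed, from Grem1 (−3.51 log2 CPM per kb) to Ski (4.54), a repressor of Smad-driven transcription.

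Id1 (chr2:152736251-152737410), a helix-loop-helix inhibitor that BMP signalling induces, had 1.51 log2 CPM and 1.30 log2 CPM per kb. Its relatives were Id2 at 2.62, Id3 at −0.16 and Id4 at 0.35 log2 CPM per kb. Of the 7 transducers, 6 were above the median gene in log2 CPM, with Foxh1, the partner of Smad2 in Nodal signalling, at 4.99 log2 CPM per kb. The exception was Smad9 at −2.57 log2 CPM per kb. Over all 44 other pathway genes, 39 were listed and 24 of them were above the median gene.

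A few members share exon sequence with another gene. Of the stretches of 100 nt in the exons, 5.85% of those of Lefty1 and 3.86% of those of Lefty2 were identical in the other Lefty gene, and 3.17% of those of Tdgf1 were identical in the pseudogene Tdgf1-ps1. The other 7 members shared none. Reads from shared stretches cannot be told apart. The cells were ESCs by their labels, and all 8 pluripotency genes were above the median gene (6.56 to 10.2 log2 CPM). A level above the median gene does not by itself identify the cells. Markers of fibroblasts, on which the cells grew, were also listed, all 10 of them, from −1.94 (S100a4) to 11.2 log2 CPM (Fn1), 8 of them were above the median gene, and Col1a1 and Postn stood at 6.60 and 4.48. Their part in the levels of the members was not tested, and fewer cells of a type and less RNA per cell cannot be told apart in bulk samples.

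**Figure D2:**
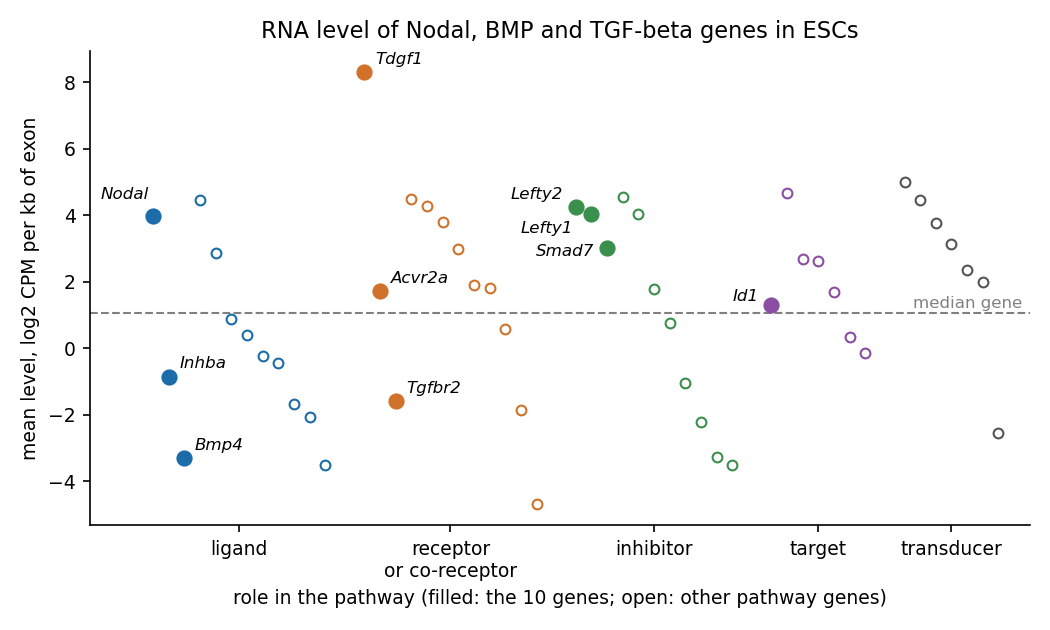
Mean RNA level of each gene (y axis, log2 CPM per kb of exon, the authors' mean over 6 libraries with no error) by role in the pathway (x axis). Filled points are the 10 members, from Bmp4 at −3.32 to Tdgf1 at 8.29, open points are the 39 other pathway genes in the table, and the dashed line is the median gene at 1.05.

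Degradome-seq was examined next for cuts within the members. The tables list pile-up sites, positions where reads start in a stack like that at known miRNA hairpins. By the authors' rule, the stack is found in both control libraries of a line. By that rule, positions that stack in deficient libraries alone would not be listed. The paper counts fewer pile-up sites for each line than are listed here, and whether every listed site meets the rule was not checked. The tables hold 3919 sites for the Drosha line and 4666 for the Dicer line, in reads per 1000000 mapped reads (RPM). The libraries held from 28682300 to 34547600 mapped reads, as derived from the low values. In 2 of the 8 libraries the lowest value above 0 is 2 reads at that depth, so the RPM were not turned back into counts. At these depths 3 reads, the limit that a count of 0 allows, are between 0.0868 and 0.105 RPM. None of the 10 members had a listed site in an exon on its own strand, in either line. Of 15459 protein-coding genes, 3.23% had such a site in the Drosha line and 3.41% in the Dicer line, and among genes at or above the level of Tgfbr2 the shares were 4.35% and 4.60%. A count of 0 in 10 genes is near this background.

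The sites described within members lay in the first intron of Acvr2a. They are shown as the 30 bases that start at the first base of the reads, on the strand of the reads. No base is in capitals, since no part of them was singled out.
Acvr2a, sense site (chr2:48865827-48865856, plus strand): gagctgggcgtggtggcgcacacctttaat
Acvr2a, antisense site (chr2:48837353-48837382, minus strand): gtcgggcgtggtggcgcacacctttaatcc

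The sense site in Acvr2a was the deeper of the pair and the one listed in both lines. It lies 4462 bases before the next exon. In the Drosha line it had 12.8 and 14.1 RPM in the controls and 21.8 and 23.6 RPM in the Drosha-deficient libraries. Both deficient libraries were above both controls. The difference was 0.75 on the log2(RPM + 0.1) scale (SE 0.33), and it did not pass the test (limma, adjusted p = 0.0553). The controls of the Dicer line had 21.9 and 13.5 RPM and its deficient libraries 12.9 and 15.2 RPM, which overlap, with a difference of −0.30 (SE 0.36, limma, adjusted p = 0.757). The effects in the 2 lines differed by 1.05 (SE 0.47), which did not pass the test of the difference (limma, adjusted p = 0.135). All 30 bases are marked as repeat in the reference, and 45 exact copies of them stand in the genome, so that the reads may have come from other copies.

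These values stand against a wide change over the whole table. A site was called changed at an adjusted p under 0.05 and a log2 difference past 1.5 in size, and of the 3919 sites 37.6% were called decreased and 9.57% increased in Drosha-deficient libraries. The median site differed by −0.93. After the libraries were centred on their median site, the share of decreased among all calls went from 79.7% to 59.1%, and the Acvr2a sense site differed by 1.34 (limma, adjusted p = 0.00164), which is short of the fold threshold. For the Dicer line, 0% of the 4666 sites were called in either direction by limma. At an unadjusted p under 0.05 and the same fold, 60 were decreased and 54 increased. A fit that pairs libraries by replicate number did call some Dicer sites, as given in the last section.

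The antisense site in Acvr2a was listed in the Dicer line alone. It had 1.33 and 1.69 RPM in the controls and 2.23 and 2.11 RPM without Dicer. Both deficient libraries were higher, but the difference of 0.50 (SE 0.42) did not pass the test (limma, adjusted p = 0.666). Its 30 bases are also marked as repeat and have 22 exact copies.

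**Figure D3:**
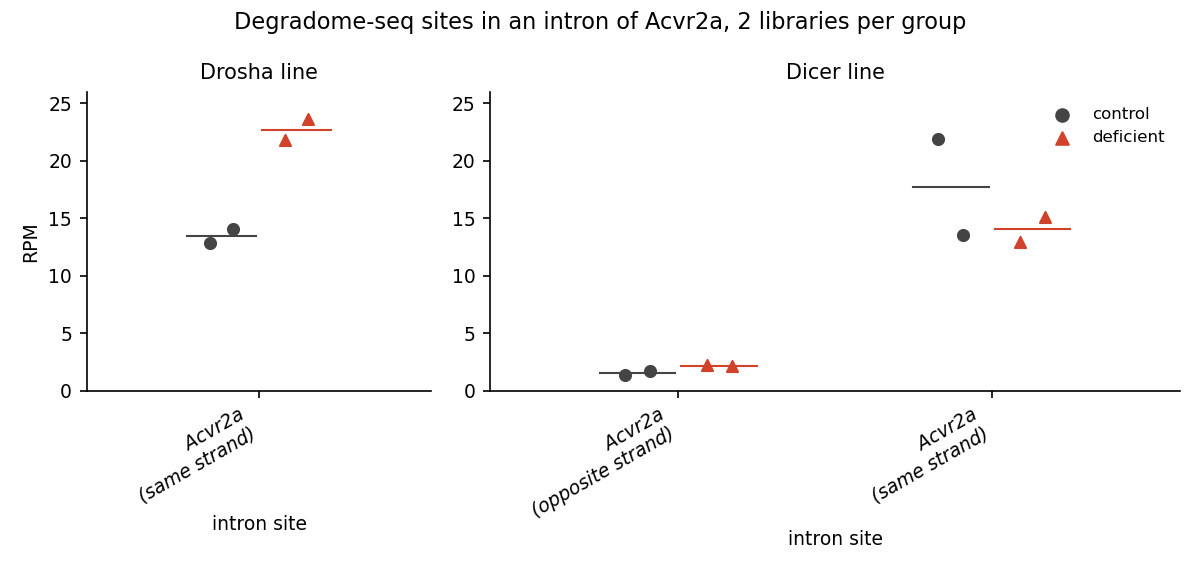
RPM (y axis) in each Degradome-seq library at the intron sites of Acvr2a in the Drosha line (left) and the Dicer line (right), with circles for controls, triangles for deficient libraries and lines for means of 2 libraries. The sense site of Acvr2a is higher in both Drosha-deficient libraries (21.8 and 23.6 RPM), and the antisense site lies at or below 2.23 RPM.

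Of the other pathway genes, Bmpr1a and Tgfbr3, a co-receptor for TGF-beta, had sites, all in introns and all in repeats. The antisense site of Bmpr1a in the Drosha line had 4.81 and 2.63 RPM in the controls and 29.0 and 6.19 RPM in the Drosha-deficient libraries. Both deficient libraries were higher, though 1 of them far more than the other. The difference of 1.88 (SE 0.53) passed the test (limma, adjusted p = 0.00568), the 1 site called among those described here in pathway genes, against a background of 9.57%. Without replicate 1 of the deficient libraries it was 0.78 (limma, adjusted p = 0.162), and without replicate 1 or 2 of the controls the adjusted p was 0.0948 or 0.233. Its 30 bases have 2294 exact copies. In the Dicer line a site on the sense strand of Bmpr1a (201 copies) and an antisense site of Tgfbr3 (603 copies) differed by 0.26 and −0.37, with adjusted p of 0.823 and 0.8 (limma).

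The loci that carry the seed were examined last, as the source of the miRNAs whose matches stand in the 3′UTRs above. Reads at all 6 loci of the miR-290 cluster examined fell in Drosha-deficient libraries. The Dicer comparison passed the test at none of them, as at none of the 4666 sites of its table in the same fit. At Mir295 (site at chr7:3220838) the controls had 660 and 704 RPM and the Drosha-deficient libraries 131 and 154 RPM, a difference of −2.26 (SE 0.32, limma, adjusted p = 3.22e-05). At Mir294 (site at chr7:3220713) the controls had 275 and 181 RPM and the Drosha-deficient libraries 45.7 and 36.2 RPM, a difference of −2.45 (SE 0.33, limma, adjusted p = 2.44e-05). The groups did not overlap at either site. Mir290a (chr7:3218698) fell the most, from 618 and 421 RPM to 29.0 and 48.8 RPM, by 3.76 on the log2 scale (SE 0.35, limma, adjusted p = 3.84e-06).

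In the Drosha line 11 sites were listed at these 6 loci, counting 5 shallower sites a few bases further on in the same hairpins. The 11 sites are therefore not independent. By the authors' rule, sites were listed only if reads stacked in both controls, so the listing can favour a fall in deficient libraries. All 11 were higher in both controls than in both deficient libraries. How many of all 3919 sites were so was not counted, so this does not set these loci apart. Of the 11, 10 were called decreased, beside 37.6% of all sites. The exception was the second site of Mir294, with 0.418 and 0.342 RPM in the controls and 0.161 and 0.104 RPM in the deficient libraries (difference −1.05, SE 0.68, limma, adjusted p = 0.186). The deepest sites differed by −3.76 to −2.26, against −0.93 for the median site. At the shallower sites most deficient libraries were at or near 3 reads, so the size of their differences depends on the 0.1 RPM that was added.

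In the Dicer line 7 sites were listed at the same 6 loci and none of them passed the test (limma). None of all 4666 sites passed it either, with a lowest adjusted p of 0.465 (limma). The 0 of 7 therefore does not set these loci apart. At an unadjusted p under 0.05 with the same fold, none of the 7 passed. Of all sites, 60 were decreased and 54 increased at that threshold. Controls had 1009 and 575 RPM at Mir295, and the deficient libraries, at 819 and 665 RPM, lay between them. Mir294 had 219 and 185 RPM in the controls and 301 and 244 RPM in the deficient libraries, a difference of 0.43 (SE 0.29, limma, adjusted p = 0.601). The difference between the Drosha and Dicer effects was itself past the threshold at the deepest site of all 6 loci. It ran from −2.22 (SE 0.45, limma, adjusted p = 0.0373) at Mir295 to −3.50 (SE 0.53, limma, adjusted p = 0.0232) at Mir290a. How many of the 2595 shared sites passed was not counted. Libraries were not centred for this test. The median site of each whole table differed by −0.93 in the Drosha line and −0.12 in the Dicer line. Whether the difference is particular to these loci was thus not tested.

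At the 5 of these loci with a mature 3p sequence in the reference table, the deepest site was the base that follows the last base of the 3p miRNA. The classifier that chose the sites was trained on such positions, so this placement is not a finding. The 30 bases at the Mir294 and Mir295 sites have 2 exact copies each in the genome, and those at the other deepest sites 1. RNA-seq reads were also listed at these 6 loci, at 4.47 to 4.74 log2 CPM.

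**Figure D4:**
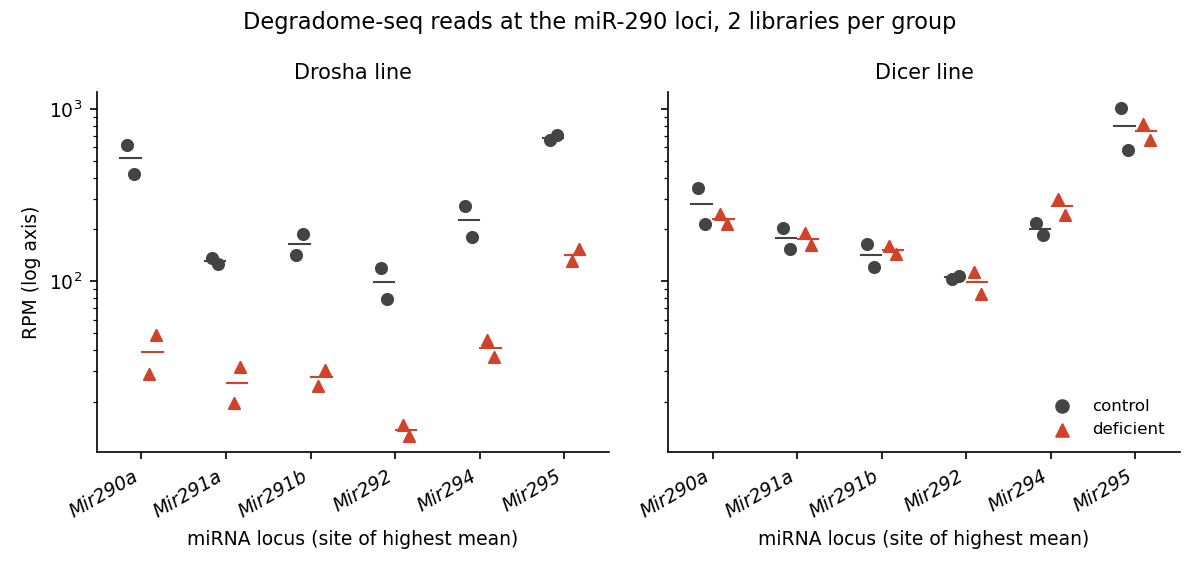
RPM (y axis, log scale) in each Degradome-seq library at the deepest site of 6 miR-290 cluster loci (x axis) in the Drosha line (left) and the Dicer line (right), with circles for controls, triangles for deficient libraries and lines for means of 2 libraries. In the Drosha line every deficient library lies below both controls at each locus, and in the Dicer line the libraries overlap except at Mir294. How many of all sites show no overlap was not counted, so this does not set these loci apart.

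No site was listed within the hairpins of Mir302a, Mir302b, Mir302c or Mir302d in either line, and none of these 4 loci was in the RNA-seq table. The nearest site was 59 nt past the end of Mir367, the last hairpin of that cluster (chr3:127545866, plus strand), and was listed in the Drosha line alone. It had 15.4 and 9.34 RPM in the controls and 2.16 and 1.88 RPM in the Drosha-deficient libraries, without overlap, a difference of −2.52 (SE 0.39, limma, adjusted p = 5.59e-05). The bases before it in the genome, TCT, equal the last 3 bases of the linker used in the assay, as they also do before the Mir295 site, and the site also lies opposite an exon of Larp7. Whether it stems from the cluster was not tested.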

How the data were processed

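For Degradome-seq, the authors trimmed reads with Trimmomatic 0.38.0, aligned them with STAR to GRCm38 (mm10), counted read starts at each position and kept pile-up sites that a classifier trained on miRNA hairpins found in both control replicates. The deposited values are RPM of mapped reads for each library. For RNA-seq, the authors aligned stranded libraries with STAR and deposited a mean log2 CPM per gene from edgeR 3.26.1. The deposited tables also hold the authors' own fold changes, F statistics, p-values and FDRs between deficient and control cells, which were not used. The gene counter and annotation are not given in the sources used here.

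RPM were tested with limma 3.58.1 in R 4.3.3 on log2(RPM + 0.1), with its empirical Bayes step (trend on the mean) and Benjamini-Hochberg adjustment over all sites of each table. This was tested on simulated data. The effects of both lines were compared as an interaction at the 2595 shared sites. A call needed an adjusted p under 0.05 and a log2 difference past 1.5 in size. The labels do not say that replicates came from separate cultures, so p-values measure only the spread between libraries, and counts of reads cover counting error only. Depth was derived from the values as the smallest number of reads that makes low RPM whole (tolerance 0.02 reads). The text names all 10 members, other pathway genes by count and range, and the seed loci. A Dicer-line site in 1 member is not reported here. The members and lists were chosen with earlier results of these data known. Genes and 3′UTRs came from GENCODE vM21 and miRNAs from RefSeq, where 10 mature 3p sequences of both clusters were found. miR-292a-3p and miR-302a-3p were not. Alternatives were a pseudocount of 0.5 RPM, libraries centred on the median site, a minimum mean of 0.5 RPM, a replicate block, leaving out each library and, chosen after seeing the data, unadjusted p-values and the interaction.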

Additional observations from a re-analysis of the deposited data

Results flagged for a closer look

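The Drosha and the Dicer effect differed at the deepest site of all 6 miR-290 cluster loci by a test of the difference itself. The test was a limma interaction over 8 libraries, adjusted over 2595 shared sites. How many of all shared sites differed was not counted, so this is not shown to be particular to these loci. Libraries were not centred, and over each whole table the median site differed by −0.93 in the Drosha line and −0.12 in the Dicer line. At Mir290a the log2 difference was −3.76 without Drosha and −0.25 without Dicer, so the effects differed by −3.50 (adjusted p = 0.0232). At Mir291a the effects differed by −2.38 (adjusted p = 0.0295), and at Mir291b by −2.67 (adjusted p = 0.0232). At Mir292 they differed by −2.71 (adjusted p = 0.0232), at Mir294 by −2.88 (adjusted p = 0.0232), and at Mir295 by −2.22 (adjusted p = 0.0373). The second site of Mir291b, at 3219556, differed by −2.49 and missed the threshold (limma, adjusted p = 0.0627). The lines also differ in how the allele was deleted, which cannot be told apart from the enzyme.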

How the results depend on the processing

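Of the sites described in the pathway genes of the Drosha line, 1 of 2 was called, that of Bmpr1a, and leaving out 1 library at a time gave 0 to 1. The sites called at the seed loci were 10 of 11. They were 7 of 11 with a pseudocount of 0.5 RPM and 9 of 11 with centred libraries. With a minimum mean of 0.5 RPM only 7 of these sites were left, and all 7 were called. No described site of either set was called in the Dicer line under any alternative. The replicate numbers are shared between groups by number only. Differences between replicates 1 and 2 correlated between control and deficient libraries at 0.13 in the Drosha line and 0.53 in the Dicer line. In a fit with a replicate block, the sense site of Acvr2a in the Drosha line differed by 0.75 (limma, adjusted p = 0.00933). It was short of the fold threshold and was not called. With a replicate block, 1 site of the pathway genes and 10 of the seed loci were called in the Drosha line and 0 of each in the Dicer line, while the calls over all Dicer sites went from 0 to 67 decreased and 119 increased. Without Dicer-deficient replicate 2 they were 1 and 13. Over all sites of the Drosha line, decreased calls went from 1473 to 953 with a pseudocount of 0.5 RPM, to 871 with centred libraries and to 907 without control replicate 1, and increased calls from 375 to 602 with centred libraries.

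In the Dicer line the sign of some small differences turned when 1 library was left out. The log2 differences ranged from −0.64 to 0.05 at the sense site of Acvr2a, from −1.03 to 0.29 at Tgfbr3, from −0.60 to 0.094 at Mir290a, from −0.21 to 0.20 at Mir291a, from −0.12 to 0.32 at Mir291b, from −0.32 to 0.11 at Mir292 and from −0.45 to 0.36 at Mir295. Mir291a was at 0.012 with centred libraries. Among genes of at least 0 log2 CPM the median member stood above 52.7% of genes, beside 66.3% of all genes. Depth limits values under about 0.105 RPM, and 2 libraries per group limit the rest.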
